A study of Mus musculus with 16 samples.

Results

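The Btg and Tob antiproliferative family was followed through the transcriptome of the dentate gyrus, the hippocampal region that keeps producing neurons in the adult mouse. The members were the 5 genes Btg1, Btg2, Btg3, Tob1 and Tob2, taken by gene name from the abundance tables, which list 24421 gene names. All mice were males of C57BL/6 background aged 1 year. They were either wild-type for p16Ink4a (p16 WT) or homozygous for a p16Ink4a null allele that leaves p19Arf functional (p16 KO), an allele brought over from the FVB strain by backcrossing. Mice of each genotype were kept sedentary (CTL) or given a running wheel for 12 days (RUN). This gave p16 WT CTL (replicates 1 to 4), p16 KO CTL (replicates 5 to 8), p16 WT RUN (replicates 9 to 12) and p16 KO RUN (replicates 13 to 16), with 4 libraries per group, 16 in all, and each library holds 2 pooled mice.

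Btg and Tob proteins share a conserved amino-terminal domain that binds the Cnot7 and Cnot8 deadenylases of the CCR4-NOT complex, the machinery that shortens poly(A) tails and so speeds mRNA decay. They are known as brakes on the passage from G1 to S phase. Btg2 (also known as Tis21 or PC3) is a target of p53 and an early response gene, and Btg1 and Btg2 are known to hold back the division of stem and progenitor cells in the adult dentate gyrus. Tob1 and Tob2 also carry a motif that binds the poly(A)-binding protein, and Tob1 is known to restrain Smad signalling downstream of BMP. Btg4, the family member of oocytes, was listed at 0 TPM in all 16 libraries. TPM is a share of transcripts corrected for transcript length, so that levels of different genes can be set side by side.

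The 250 bases before the annotated start of the 4 members whose rows stood at a single place (RefSeq, GRCm38.p6, the build of the mm10 alignments) are shown to give the sequence context of these genes. All 5 members were matched by symbol. Capitals mark matches, on either strand, to the cAMP response element TGACGTCA, the FOXO site GTAAACA, the TATA box letters TATAAA, the CCAAT box and the GC box GGGCGG. The AP-1 site TGANTCA, the CArG box, the EGR site and the p53 half-site were searched as well. Btg2 at chr1:134079156-134079405 (minus strand), Btg1 at chr10:96616751-96617000 (plus strand), Tob1 at chr11:94211204-94211453 (plus strand) and Tob2 at chr15:81858327-81858576 (minus strand) read, from 5′ to 3′:
Btg2: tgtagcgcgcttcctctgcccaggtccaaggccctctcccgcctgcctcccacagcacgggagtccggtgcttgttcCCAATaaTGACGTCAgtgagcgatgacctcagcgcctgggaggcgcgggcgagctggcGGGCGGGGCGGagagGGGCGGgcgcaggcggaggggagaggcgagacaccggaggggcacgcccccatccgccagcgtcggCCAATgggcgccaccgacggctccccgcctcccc
Btg1: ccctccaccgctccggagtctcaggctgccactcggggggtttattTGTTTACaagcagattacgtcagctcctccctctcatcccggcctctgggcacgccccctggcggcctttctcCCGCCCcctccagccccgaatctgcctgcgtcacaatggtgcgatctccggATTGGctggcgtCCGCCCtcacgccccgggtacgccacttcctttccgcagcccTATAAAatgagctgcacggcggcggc
Tob1: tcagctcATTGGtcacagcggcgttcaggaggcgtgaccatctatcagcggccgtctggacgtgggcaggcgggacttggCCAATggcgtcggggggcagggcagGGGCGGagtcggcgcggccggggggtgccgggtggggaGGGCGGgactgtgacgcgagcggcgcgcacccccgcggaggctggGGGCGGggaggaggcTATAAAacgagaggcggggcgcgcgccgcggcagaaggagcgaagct
Tob2: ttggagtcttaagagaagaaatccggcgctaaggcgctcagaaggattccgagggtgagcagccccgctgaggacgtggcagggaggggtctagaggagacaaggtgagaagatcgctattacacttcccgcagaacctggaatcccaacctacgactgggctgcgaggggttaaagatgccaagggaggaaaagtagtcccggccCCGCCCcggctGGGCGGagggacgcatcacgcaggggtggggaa

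In the Btg2 window the letters TGACGTCA lie 166 to 159 bases before the start and were found in none of the windows of Btg1, Btg3, Tob1 and Tob2, and 1.55% of 32851 windows of the same length hold them. The FOXO letters lie in the Btg1 window alone, 204 to 198 bases before the start, against 3.17% of all windows. TATAAA lies 26 to 21 bases before the start of Btg1 and 47 to 42 bases before that of Tob1 and was absent from the windows of the other members, while 12.4% of all windows hold it. CCAAT was present in the windows of Btg1, Btg2, Btg3 and Tob1 but not of Tob2 (33.8% of all windows), and each member has at least 1 GC box (32.7% of all windows). The promoter table lists 2 starts for Btg3. The window described here is chr16:78376811-78377060, and of the letters searched the window of the other start holds a CCAAT box alone. The 3 GC boxes of Btg2 include 2 that overlap by 1 base. AP-1, CArG, EGR and p53 half-site letters were not found in these windows (6.75%, 1.47%, 3.06% and 7.13% of all windows hold them). A match describes the letters only.

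Before the levels, the identity of Btg3 needs a description, because rows of that name stood at 2 places. One lies on chromosome 16 from 78359860 to 78377181 (minus strand), the place of the protein-coding Btg3 gene. The other lies on chromosome 17 from 50698681 to 50699884 (plus strand), over the gene that GENCODE names Gm7334, a processed pseudogene of Btg3 (50698688 to 50699443). The row named Gm7334 lies in turn on chromosome 16 from 78359863 to 78376757, inside the Btg3 gene. Between 71.9% and 99.7% (median 98.6%) of the TPM named Btg3 in a library belonged to the chromosome 17 row, which had 6.91 to 14.7 TPM. The row named Btg3 on chromosome 16 had 0.03 to 3.45 TPM, and the row named Gm7334 there had 18.4 to 30.7 TPM. The chromosome 16 place, both names together, therefore held 66.2% to 75.1% (median 72.1%) of the TPM of the 3 rows. All 756 bases of the pseudogene transcript align to a Btg3 transcript of 1414 bases in GENCODE with 756 identical bases, so reads from this stretch cannot be placed by sequence, and how reads with several matches were treated is not given in the sources used here. Values of Btg3 are given below by gene name, as the rule asks, and for the chromosome 16 place. The plot of these rows by library shows the split.

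**Figure D1:**
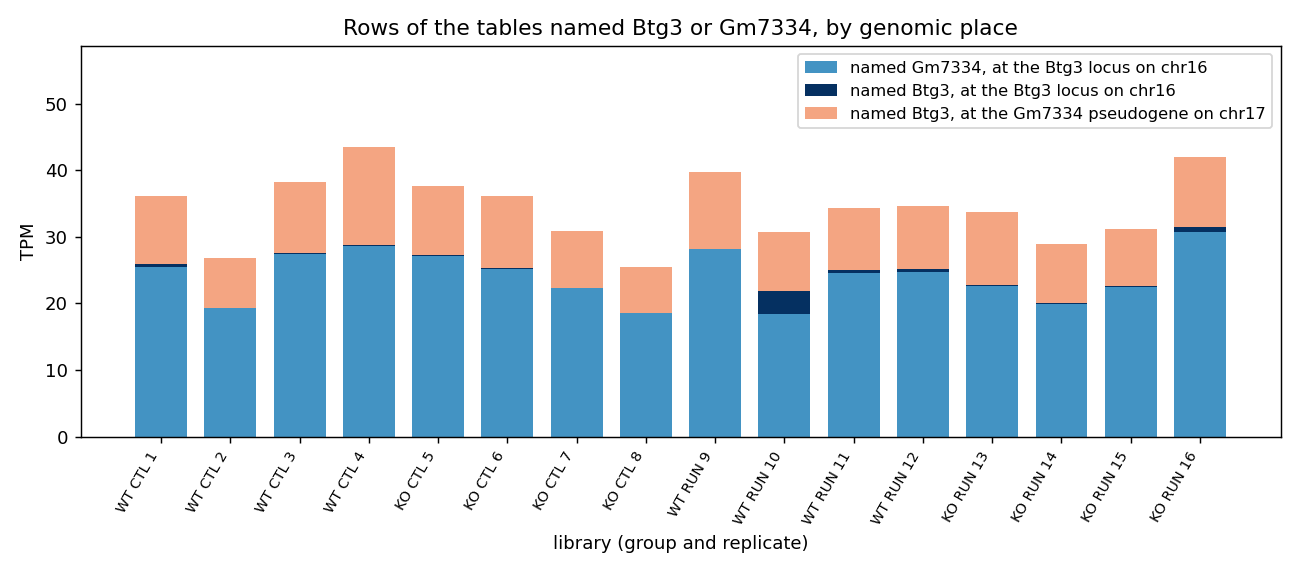
TPM (vertical axis) of the 3 rows named Btg3 or Gm7334 in each of the 16 libraries (horizontal axis), stacked; colours give the name and the place of each row. The row named Gm7334 at the Btg3 gene on chromosome 16 is the largest in every library (18.4 to 30.7 TPM), and the row named Btg3 there reaches 3.45 TPM in p16 WT RUN replicate 10.

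The other members have 1 place each on mm10: Btg1 on chromosome 10 from 96617001 to 96622811 (plus strand), Btg2 on chromosome 1 from 134074865 to 134079155 (minus strand), Tob1 on chromosome 11 from 94211454 to 94215492 (plus strand) and Tob2 on chromosome 15 from 81848270 to 81858326 (minus strand). All are protein-coding genes in GENCODE. An antisense gene of GENCODE, Gm49476 (81857741 to 81858305), lies inside the 5′ part of Tob2. Whether the abundances were computed by strand is not given in the sources used here.

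Libraries were compared for what could move with the members. The median coverage relative to the mean library was 0.900 to 1.95 for p16 WT CTL, 0.621 to 0.877 for p16 WT RUN, 0.914 to 1.68 for p16 KO CTL and 0.796 to 0.893 for p16 KO RUN, and the mean coverage per base of the members ranged from 19.4 (Btg3) to 322.7 (Tob1). Of 8 nuclear RNAs such as Malat1 and Meg3, the summed level was 976.9, 541.1 and 479.1 TPM in p16 WT CTL replicate 2, p16 KO CTL replicate 6 and p16 KO CTL replicate 7, against 1828 to 2533 TPM in the other libraries, so these 3 libraries stand apart. Cdkn2a, the gene that holds p16Ink4a, had at most 0.586 TPM and was listed at 0 in libraries of both genotypes, so its level does not check the genotype labels. All 8 granule neuron markers were present (summed level 529.5 to 1444 TPM) and the 7 listed markers of CA1 to CA3 pyramidal neurons in the tables summed to 119.2 to 278.9 TPM. The summed level of 8 proliferation markers was 7.02 to 8.04 TPM in p16 KO RUN and 2.35 to 5.97 TPM in the other groups, without overlap. In such tissue samples fewer expressing cells and less RNA per cell cannot be told apart.

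Tob1 was the most abundant member by mean in every group, followed by Btg1, Tob2, Btg2 and Btg3. Over the 16 libraries the mean levels were 52.3 TPM for Tob1, 37.4 for Btg1, 23.8 for Tob2, 20.4 for Btg2 and 10.3 for Btg3 by name, above 75.9%, 68.7%, 58.0%, 54.6% and 42.1% of the genes tested. Tob1 and Btg1 overlapped between libraries in all groups except p16 KO RUN. Btg1 was above Tob2 without overlap in p16 WT CTL and p16 KO RUN. Tob2 and Btg2 overlapped in all 4 groups, whereas Btg2 was above Btg3 by name without overlap in all 4. Taken at its chromosome 16 place, Btg3 averaged 24.5 ± 3.67 TPM (SD, n = 16) and so stood beside Tob2 and Btg2 rather than below them.

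**Figure D2:**
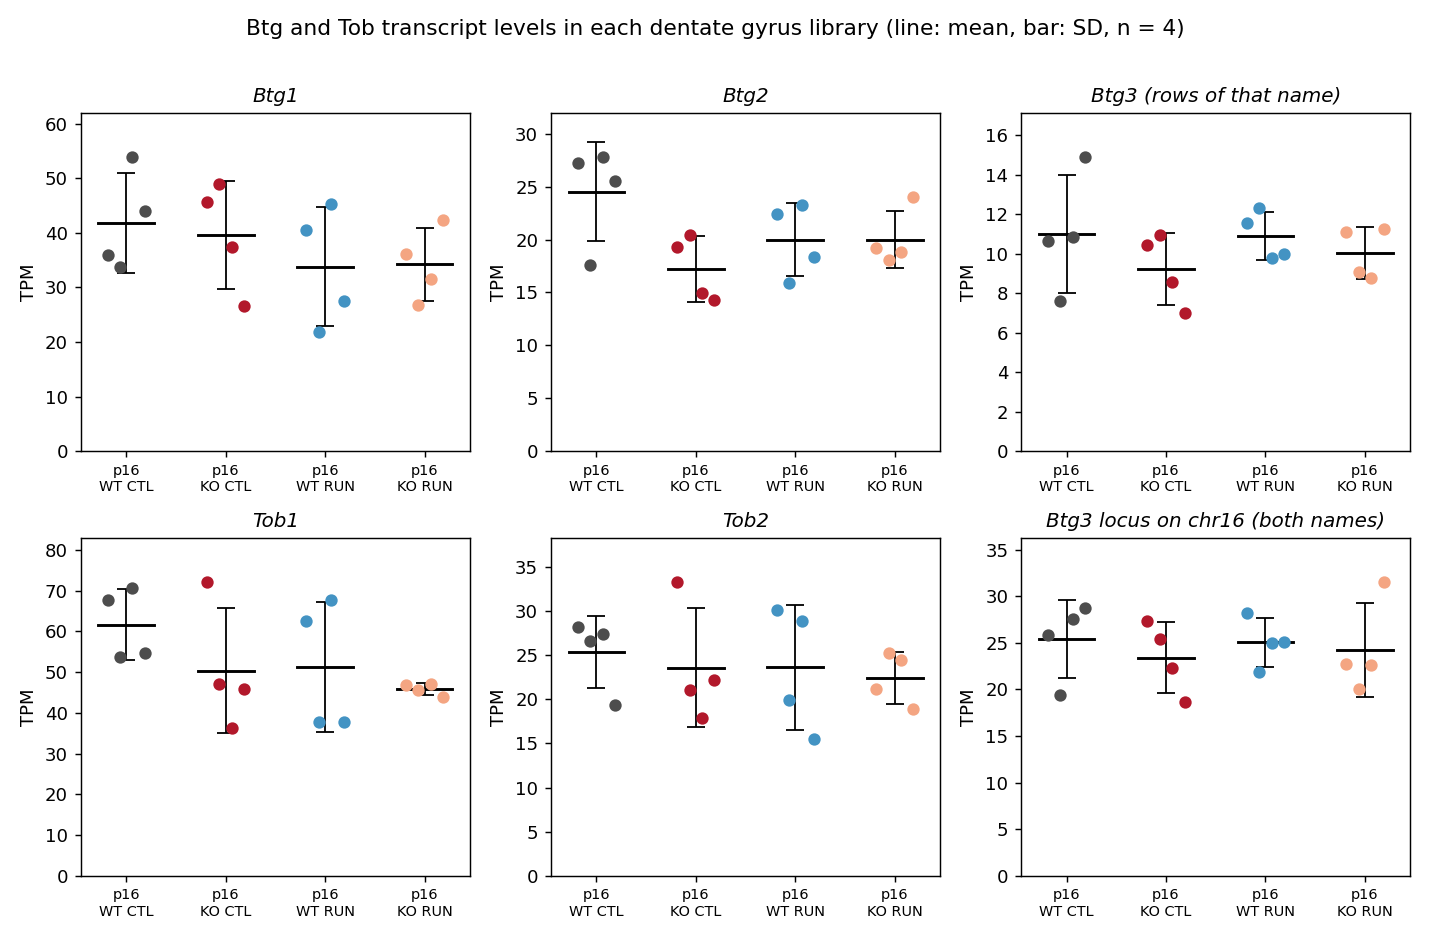
TPM of each member in each library (points, 4 per group), with the group mean (line) and SD (bar), for the 4 groups on the horizontal axis; the last panel gives the chromosome 16 place of Btg3. Btg2 is at 25.5 TPM or more in 3 of 4 p16 WT CTL libraries and at 24.0 TPM or less in the 12 libraries of the other groups; Tob1 spans only 43.8 to 47.0 TPM in p16 KO RUN.

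Pairs of groups were compared as the study defined them. Running was tested within the knockout (Set A) and within the wild type (Set C), each against its sedentary group. Genotype was tested in sedentary mice (Set B) and in runners (Set E), and running knockouts were set against sedentary wild types (Set D). The effect of running averaged over genotypes, that of genotype averaged over activity and their interaction were fitted on all 16 libraries. Genes with an unadjusted p under 0.05 by limma, the threshold of the study, were counted as called, and p adjusted by Benjamini and Hochberg over 17317 genes is given beside the values, with an exact permutation p for members. Between 4 and 4 libraries that exact p cannot go below 0.0286. Of 40 member and comparison pairs 3 were called (7.5%) and none had an adjusted p under 0.05, while over all genes and the same 8 comparisons 9.12% of pairs were called. Sets B, C and D share the p16 WT CTL libraries, and Sets A and B those of p16 KO CTL.

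Btg2 had a lower mean in sedentary knockout than in sedentary wild-type mice, called by unadjusted p only. Its level was 27.2, 17.6, 27.8 and 25.5 TPM in the p16 WT CTL libraries and 19.3, 20.5, 14.9 and 14.3 TPM in the p16 KO CTL libraries. The groups overlap through p16 WT CTL replicate 2, while the other three wild-type libraries lie above every knockout one. With running the level was 22.4, 15.9, 23.3 and 18.4 TPM in p16 WT RUN and 19.2, 18.0, 18.8 and 24.0 TPM in p16 KO RUN. Group means with SD over 4 libraries were 24.5 ± 4.71 TPM for p16 WT CTL and 19.995 ± 3.45 TPM for p16 WT RUN, against 17.2 ± 3.09 TPM for p16 KO CTL and 19.999 ± 2.70 TPM for p16 KO RUN. Thus 3 of the 4 p16 WT CTL libraries were above all 12 libraries of the other groups, which ranged from 14.3 to 24.0 TPM. This split was counted for Btg2 alone, and the share of all genes with such a split was not computed.

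In Set B the log2 fold change of Btg2 was -0.44 (SE 0.16, 95% interval -0.80 to -0.08, adjusted p = 0.625, exact permutation p = 0.0857). Btg2 was the only member called in Set B, where 6.69% of all genes were called. That background moved with single libraries, from 1158 genes to 557 without p16 KO CTL replicate 7 and to 3029 without p16 WT CTL replicate 2. The call was lost without p16 WT CTL replicate 1 or 3 or p16 KO CTL replicate 7 or 8, with values between -0.57 and -0.35 over the libraries left out. Without the 3 libraries low in nuclear RNA the log2 fold change was -0.65, and with the nuclear RNA mean as a covariate it was -0.43 and still called.

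Some markers of other cells were called in Set B as well, all higher in p16 KO CTL, against 6.69% of all genes. They were Tmem119 (0.42) and P2ry12 (0.51) of 5 microglia markers, Pvalb (0.58) and Vip (0.46) of 6 interneuron markers and Gfap (0.45) of 5 astrocyte markers, each with adjusted p = 0.625. No marker was called in the lists of granule neurons, CA1 to CA3 pyramidal neurons, oligodendrocytes, endothelium, neuroblasts, proliferation, choroid plexus, blood and meninges. The summed level of the microglia markers was 306.5 to 351.4 TPM in p16 WT CTL and 302.7 to 436.7 TPM in p16 KO CTL. That of the interneuron markers was 774.0 to 1233 and 939.1 to 1191 TPM, and that of the astrocyte markers 1973 to 2514 and 1943 to 2967 TPM, so each sum overlapped between the groups. The part of these cells in the Btg2 value was not tested.

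The estimated running effect on Btg2 had opposite signs in the 2 genotypes. It was 0.16 (SE 0.13, exact permutation p = 0.371) on the log2 scale in Set A and -0.30 (SE 0.15, exact permutation p = 0.114) in Set C, and neither was called. With a library left out, Set A ran from 0.066 (p16 KO CTL replicate 8) to 0.25 (p16 KO CTL replicate 6) and Set C from -0.43 to -0.21. Their difference, the interaction, was 0.46 (SE 0.21, 95% interval 0.003 to 0.91, n = 16, limma p = 0.0488, adjusted p = 0.797), and 5.48% of all genes were called in this test. The interaction call was lost under 4 of 13 other settings, where the value was 0.42 to 0.46, and without any single one of 10 of the 16 libraries. Over the 16 libraries left out in turn the value was 0.36 to 0.58. Over all genes 949 were called in the interaction. Leaving out replicate 3 of p16 WT CTL gave 619, and leaving out its replicate 2 gave 2381. In Set D Btg2 had a log2 fold change of -0.28 (SE 0.14, exact permutation p = 0.114), and in Set E 0.02 (SE 0.13, exact permutation p = 0.886). Averaged over activity, the genotype difference was -0.21 (SE 0.11, exact permutation p = 0.123). The genotype difference was called without any one of p16 WT CTL replicate 2, p16 KO CTL replicate 6, p16 WT RUN replicate 10 and p16 KO RUN replicate 16 (-0.28 to -0.25), and without the 3 libraries low in nuclear RNA (-0.32). Set C was called without p16 WT CTL replicate 2 (-0.43), and Set D without that library (-0.41) or p16 KO RUN replicate 16 (-0.37). This p16 WT CTL library is also 1 of the 3 low in nuclear RNA and has the highest coverage. With the nuclear RNA mean as a covariate Btg2 was called in Set C (-0.35) and Set D (-0.37), and the interaction was 0.46 and not called (n = 16, limma p = 0.0679). The part of coverage in these values was not tested. Of the proliferation markers, 5 of 7 tested were called higher in the interaction (Top2a by 1.56, adjusted p = 0.797). Of 5 neuroblast markers Eomes was called higher (2.07), and of 6 interneuron and 7 CA1 to CA3 markers Pvalb (-0.75) and Fibcd1 (-1.28) were called lower, each with adjusted p = 0.797. The part of these markers in the Btg2 value was not tested.

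Btg1, the closest relative of Btg2, varied widely between libraries of each group. Its level was 36.0, 33.7, 53.9 and 44.1 TPM in p16 WT CTL and 45.6, 48.9, 37.3 and 26.6 TPM in p16 KO CTL. After running it was 40.6, 21.9, 45.3 and 27.5 TPM in p16 WT RUN and 36.2, 26.7, 31.6 and 42.4 TPM in p16 KO RUN. All 4 groups overlap, and p16 WT RUN holds both a library at 21.9 and one at 45.3 TPM. The mean of 4 libraries with its SD was 41.9 ± 9.16 TPM for p16 WT CTL and 33.8 ± 11.0 TPM for p16 WT RUN, against 39.6 ± 9.96 TPM for p16 KO CTL and 34.2 ± 6.67 TPM for p16 KO RUN.

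Btg1 was not called in any of the 8 comparisons. Its lowest p was that of running averaged over genotypes, a log2 fold change of -0.31 (SE 0.16, 95% interval -0.65 to 0.03, adjusted p = 0.323, exact permutation p = 0.0967), with -0.26 (SE 0.20) in Set A and -0.36 (SE 0.22) in Set C. No member was called for running averaged over genotypes, where 17.9% of all genes were called, nor in Set A, where 18.5% were called, nor in Set C, where 4.81% were called (833 genes, and 531 without p16 WT RUN replicate 10). With the nuclear RNA mean as a covariate the genes called fell from 3097 to 1602 for running and from 3196 to 1632 in Set A, and without the 3 libraries low in nuclear RNA they were 1608 and 1470. Leaving out p16 KO CTL replicate 6 or 7 gave 2063 or 2023 in Set A. The running effect on Btg1 passed the threshold in 4 of 16 fits with a library left out, namely p16 KO CTL replicate 8, p16 WT RUN replicate 9 or 11 or p16 KO RUN replicate 16, with -0.40 as the largest fall. In Set A it passed without p16 KO CTL replicate 8 (-0.44), but was -0.14 without p16 KO CTL replicate 6 and -0.065 without the 3 libraries low in nuclear RNA. In Set C it passed without p16 WT RUN replicate 11 (-0.51), but was -0.18 without p16 WT RUN replicate 10. Between genotypes Btg1 differed by 0.02 (SE 0.16, 95% interval -0.33 to 0.36) on the log2 scale, averaged over activity.

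Tob1 had a lower mean in running knockout than in sedentary wild-type mice, called by unadjusted p only. Its level was 67.6, 53.8, 70.7 and 54.6 TPM in p16 WT CTL and 46.9, 45.6, 47.0 and 43.8 TPM in p16 KO RUN. These groups do not overlap, and the share of all genes without overlap was not computed. The means of the other groups lay in between, but their libraries spread more widely. In p16 KO CTL they had 72.1, 47.2, 36.2 and 45.9 TPM, with replicate 5 above all p16 WT CTL libraries and the other three below them. In p16 WT RUN they had 62.5, 37.7, 67.6 and 37.6 TPM, with replicates 9 and 11 in the range of p16 WT CTL and the other two below all p16 KO RUN libraries. Averages (n = 4, with SD) stood at 61.7 ± 8.72 TPM for p16 WT CTL and 51.4 ± 15.9 TPM for p16 WT RUN, against 50.4 ± 15.3 TPM for p16 KO CTL and 45.8 ± 1.49 TPM for p16 KO RUN.

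In Set D the log2 fold change of Tob1 was -0.42 (SE 0.09, 95% interval -0.62 to -0.22, adjusted p = 0.246), a level 0.747 times that of p16 WT CTL. The exact permutation p was 0.0286, the smallest that 4 against 4 libraries can give. Tob1 ranked 75 by p among the 17317 genes, and it was the only member called in Set D, where 8.63% of all genes were called (1495, and 2270 with the nuclear RNA covariate, under which 3 members were called). Its call held in the 8 fits with a library left out and in the 14 other settings, with values from -0.49 to -0.36. The limma p rose from 0.00111 to 0.0415 with all 16 libraries in one fit, which takes the variance over all 4 groups. The SD of Tob1 was 1.49 TPM in p16 KO RUN and 8.72 to 15.9 TPM in the other groups. Btg2 was called as well without p16 WT CTL replicate 2 or p16 KO RUN replicate 16, Btg1 without the latter and Tob2 without p16 WT CTL replicate 4. The proliferation markers do not overlap between these groups (2.35 to 5.97 TPM in p16 WT CTL and 7.02 to 8.04 TPM in p16 KO RUN, 3 of 7 called higher). Of the other marker lists, 1 of 6 interneuron markers (Vip, 0.79), 1 of 8 granule neuron markers (Pdzd2, 0.81) and 1 of 5 neuroblast markers (Igfbpl1, 1.21) were called higher in Set D. Their list medians were 0.09, 0.26 and 0.15, and each list also held markers with a lower mean TPM in p16 KO RUN. Of 5 blood markers Hbb-bs was called lower (-3.75), while the others were at 0.15 to 0.50 and the list median was 0.18. Of 8 nuclear RNAs Rian (0.30) was called higher. Of 5 astrocyte markers Gfap was called higher (0.42), while the other four were at -0.97 to -0.03 and the list median was -0.12. The adjusted p of the 6 genes called in these lists was 0.246 to 0.574, and the summed level of each of these lists overlapped between the groups. Their part and that of the proliferation markers in the Tob1 value was not tested.

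Neither step alone was called for Tob1. The log2 fold change was -0.27 (SE 0.17) in Set B and -0.16 (SE 0.15) in Set A, with an exact permutation p of 0.200 and 0.543. It was -0.32 (SE 0.20) in Set C and -0.10 (SE 0.18) in Set E, with an exact permutation p of 0.286 and 0.571. Averaged over genotypes, running gave -0.24 (SE 0.13, exact permutation p = 0.138), and genotype averaged over activity gave -0.18 (SE 0.13, exact permutation p = 0.222). The interaction was 0.16 (SE 0.27, n = 16, limma p = 0.551). Single libraries moved these calls: Set B was called without p16 KO CTL replicate 5, the library at 72.1 TPM (-0.43), Set C without p16 WT RUN replicate 11 (-0.46), genotype without p16 KO CTL replicate 5 (-0.27), and running without p16 KO CTL replicate 7 or p16 WT RUN replicate 9 or 11. Other omissions brought the values nearer to 0, to -0.14 in Set B without p16 KO CTL replicate 7, to -0.19 in Set C without p16 WT RUN replicate 12 and to -0.11 for genotype without p16 WT RUN replicate 11. Set B was also at -0.11 without the 3 libraries low in nuclear RNA. Under the 14 other settings Set A lay between -0.35 and -0.090 and was never called. Without the 3 libraries low in nuclear RNA, running averaged over genotypes gave -0.35 and was called.

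Tob2 showed no called difference in the reported fits. Its level was 28.2, 26.7, 27.4 and 19.3 TPM in p16 WT CTL, and 33.3, 21.1, 17.85 and 22.2 TPM in p16 KO CTL. It was 30.2, 19.9, 28.9 and 15.5 TPM in p16 WT RUN and 21.1, 25.3, 24.5 and 18.9 TPM in p16 KO RUN. All groups overlap, and the means lay between 22.4 ± 2.98 TPM in p16 KO RUN and 25.4 ± 4.09 TPM in p16 WT CTL (SD, n = 4). The log2 fold changes ran from -0.18 (SE 0.15, exact permutation p = 0.314) in Set D to 0.04 in the interaction, and the 95% interval for running averaged over genotypes was -0.44 to 0.18. With a library left out, Set D ran from -0.32 (p16 WT CTL replicate 4, called) to -0.091 (p16 KO RUN replicate 16).

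Btg3 by name was at 10.6, 7.59, 10.8 and 14.9 TPM in p16 WT CTL and 10.4, 11.0, 8.54 and 7.00 TPM in p16 KO CTL. It was at 11.6, 12.3, 9.79 and 9.97 TPM in p16 WT RUN and 11.1, 9.05, 8.76 and 11.2 TPM in p16 KO RUN. The groups overlap throughout, and no comparison was called. The largest of the Set A to E log2 fold changes by size was -0.17 (SE 0.20, exact permutation p = 0.429) in Set B, and -0.31 to -0.025 there with a library left out (p16 WT CTL replicate 2 and replicate 4). Under the 14 other settings the Set B value ran from -0.44 to -0.055 and was never called. Without the 3 libraries low in nuclear RNA, Btg3 by name was called for genotype averaged over activity (-0.28, against -0.14 with all libraries). At the chromosome 16 place the mean and SD (n = 4) were 25.4 ± 4.19 TPM for p16 WT CTL and 25.0 ± 2.62 TPM for p16 WT RUN, against 23.4 ± 3.80 TPM for p16 KO CTL and 24.2 ± 5.03 TPM for p16 KO RUN. There the log2 fold changes of Btg3 ran from -0.08 (SE 0.15) in Set D to -0.02 (SE 0.15 and 0.11) in Sets A and C, with -0.06 (SE 0.14) for Set B and -0.05 (SE 0.13) for Set E, none called. The direction for Sets A and C and for running averaged over genotypes was positive by name and negative at the chromosome 16 place, with intervals that span 0 in both.

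Set E, which compares the genotypes after running, had no called member, and 3.87% of all genes were called there (671, and 1048 without p16 WT RUN replicate 12). Its member log2 fold changes lay between -0.11 (Btg3, SE 0.12) and 0.06 (Btg1, SE 0.22). Genotype averaged over activity had none either, with 7.12% of all genes called. The forest of fitted changes shows that the intervals of the 5 members are wide against these values.

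**Figure D3:**
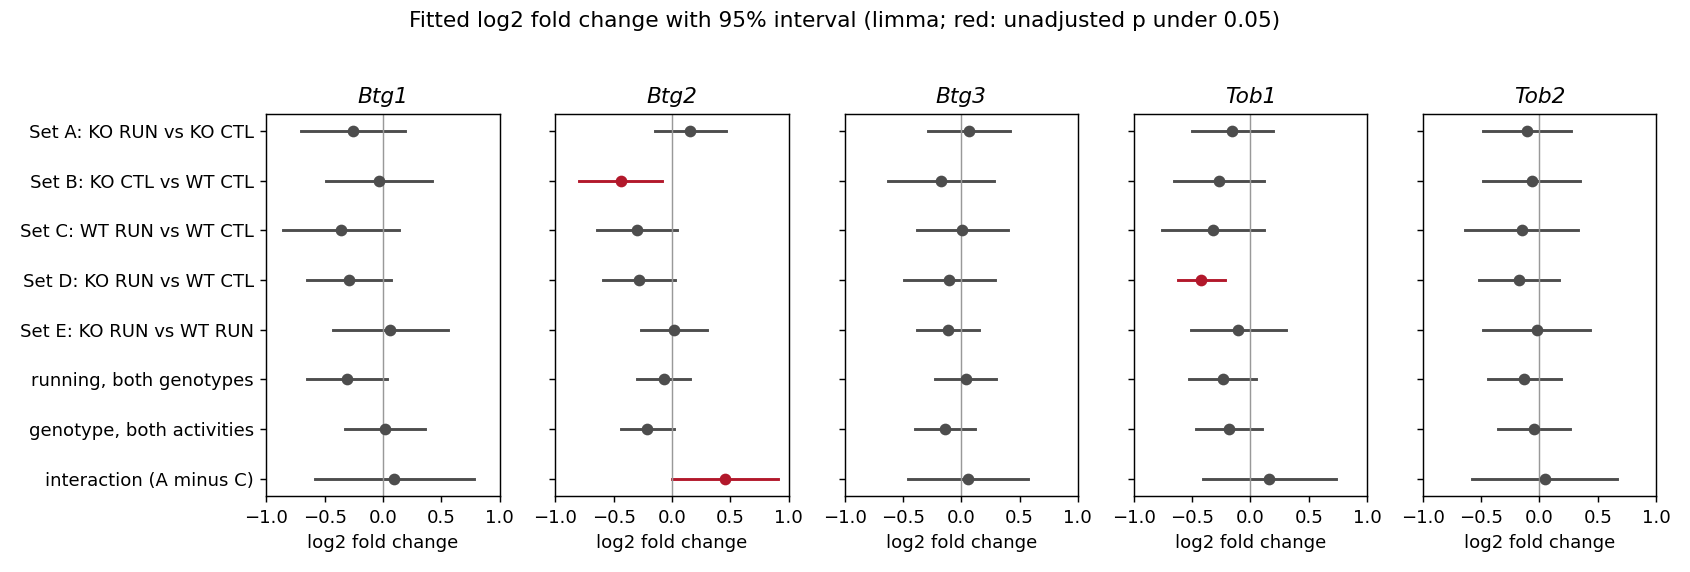
Fitted log2 fold change (horizontal axis; points) with its 95% interval (lines) for the 5 members (panels) in the 8 comparisons (vertical axis); red marks an unadjusted limma p under 0.05. The red intervals are Btg2 in Set B (-0.44) and in the interaction (0.46) and Tob1 in Set D (-0.42).

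Although few group differences were called, some members varied together from library to library. Of 20 relations examined over the 16 libraries on the log2 scale, 6 had an adjusted permutation p under 0.05 by Pearson's r and 3 by Spearman's rho, namely Tob1 with Tob2, Btg1 with Btg2 and Btg3 with the immediate early genes. The points of each relation share libraries, and with them the dissection, the pool of mice and the depth. The closest pair was Tob1 and Tob2, with r = 0.84 (permutation adjusted p = 0.0016) and rho = 0.83 (permutation p = 0.00019). Without the 2 libraries farthest from the median of Tob2 r was 0.77, and for deviations from the group means it was 0.87 (adjusted permutation p = 0.0105). Tob1 ranked 16 by r among 14437 genes set against Tob2, and Tob2 ranked 33 among those set against Tob1. Both were high in p16 KO CTL replicate 5 and in p16 WT RUN replicates 9 and 11, and low in p16 KO CTL replicate 7 and p16 WT RUN replicate 12.

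Btg1 and Btg2 had r = 0.66 (permutation adjusted p = 0.0382) and rho = 0.72 (permutation p = 0.00247), and r = 0.83 for deviations from the group means (adjusted permutation p = 0.0105). Without the 2 farthest libraries r was 0.68. Many other genes were as close, since Btg2 ranked 579 among the 14437 genes set against Btg1 (4.01% had an r as high) and Btg1 ranked 560 among those set against Btg2. Tob1 was also related to Btg1 (r = 0.60, rho = 0.60, adjusted permutation p = 0.0484 for r and 0.0639 for rho) and to Btg2 (r = 0.62, rho = 0.62, adjusted permutation p = 0.0484 for r and 0.0585 for rho). For deviations from the group means r was 0.56 with Btg1 and 0.56 with Btg2, with adjusted permutation p of 0.274 and 0.244. Without the 2 farthest libraries r was 0.48 for Btg1 and 0.65 for Btg2. Tob2 had r of 0.31 with Btg1 and 0.23 with Btg2 (adjusted permutation p 0.453 and 0.515).

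**Figure D4:**
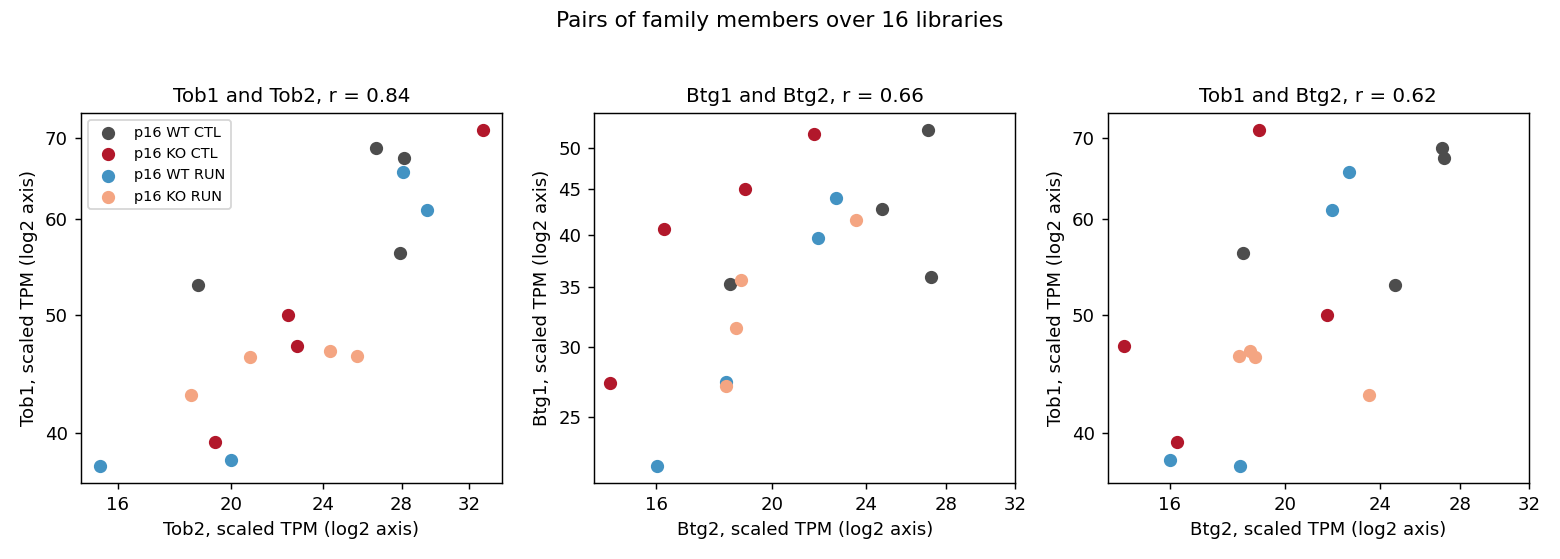
Scaled TPM of a pair of members in each of the 16 libraries, both axes on a log2 scale, coloured by group. Tob1 is higher where Tob2 is higher (r = 0.84), although the 4 p16 KO RUN libraries have nearly equal Tob1 while their Tob2 varies. Btg1 and Btg2 have r = 0.66, and Tob1 and Btg2 r = 0.62.

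Btg3 depended on how it was read. By name it had r = 0.29 with Btg1 and 0.52 with Btg2 (permutation p 0.283 and 0.0388, adjusted permutation p 0.472 and 0.111). At its chromosome 16 place it had r = 0.68 with Btg1 and 0.71 with Btg2 (permutation p 0.00428 and 0.00201, not adjusted), beside 0.66 for Btg1 with Btg2, and r = 0.27 with Tob1. Against the mean of 22 immediate early genes such as Fos and Arc, which neuronal activity induces, Btg3 went down as they went up, with r = -0.66 by name (rho = -0.68, adjusted permutation p = 0.0382 for r) and -0.73 at its chromosome 16 place (permutation p = 0.00155). The value by name was -0.66 without the 2 farthest libraries and -0.76 for deviations from the group means (adjusted permutation p = 0.0391). Tob2 went the other way, with r = 0.60 (rho = 0.50, adjusted permutation p = 0.0484 for r and 0.140 for rho), 0.57 without the 2 farthest libraries and 0.62 within groups (adjusted permutation p = 0.0684). Btg2, itself an early response gene, had r = -0.25 with this mean (rho = -0.31, adjusted permutation p = 0.512), and Btg1 had r = -0.33 and Tob1 0.33. None of the 5 members had a relation with the nuclear RNA mean at an unadjusted permutation p under 0.05.

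The genes most like each member over the 16 libraries were named by Pearson's r among genes averaging 1 TPM or more, as a description. For Btg1 these were Ipcef1 (r = 0.96), Mapk3, the kinase Erk1 (r = 0.96), and Galnt13 (r = 0.95). For Btg2 the first 2 were Ssrp1, a subunit of the histone chaperone FACT (r = 0.92), and the potassium channel gene Kcnk10 (r = 0.91). For Tob1 they were the secreted protease gene Adamts1 (r = 0.94), the histone demethylase gene Kdm5a (r = 0.91) and Taf8, a subunit of TFIID (r = 0.91). For Tob2 they were Nab2, a corepressor of Egr proteins (r = 0.91), Spty2d1 (r = 0.91) and Klhl21 (r = 0.89). For Btg3 by name the nearest were Foxk1, Nhsl2 and Tm9sf1, with lower r of 0.82, 0.81 and 0.81. By Spearman's rho none of these 3 was among the first 3 for Btg3 (ranks 8, 6 and 39), and of the genes named for Btg1 only Ipcef1 was, while 2 of 3 were for each of Btg2, Tob1 and Tob2.

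Cnot7 and Cnot8, the deadenylase subunits that Btg and Tob proteins bind, were at 75.2 ± 4.91 and 72.8 ± 7.15 TPM for p16 WT CTL, at 78.7 ± 4.32 and 74.2 ± 4.59 TPM for p16 WT RUN, at 74.5 ± 6.94 and 70.03 ± 5.31 TPM for p16 KO CTL, and at 77.3 ± 2.57 and 76.0 ± 5.75 TPM for p16 KO RUN (SD, n = 4). Neither was called in any of the 8 comparisons, and their log2 fold changes lay between -0.06 and 0.06. Of the 11 CCR4-NOT genes tested, 2 were called higher and none lower in Set A, the scaffold gene Cnot1 (0.17, SE 0.07, adjusted p = 0.250) and Cnot3 (0.23, SE 0.08, adjusted p = 0.215), against 18.5% of all genes. The median log2 fold change of the 11 was 0.05 in Set A, against 0.02 over all genes. In Set B 1 of 11 was called (6.69% of all genes), Cnot1, with a log2 fold change of -0.19 (SE 0.07, adjusted p = 0.625), with a list median of -0.03. In Set C, where 4.81% of all genes were called, Cnot6l alone was called higher (0.29, adjusted p = 0.985), and in Sets D and E and in the interaction none. For genotype averaged over activity 2 of 11 were called lower, Cnot1 (-0.12) and Cnot10 (-0.16, adjusted p = 0.674 for both), against 7.12% of all genes, with a list median of -0.06. For running averaged over genotypes Cnot1 alone was called, higher (0.098, adjusted p = 0.264), against 17.9% of all genes. Of the 5 genes for poly(A) tail binding and other deadenylases, Pan2 (0.59, SE 0.18, adjusted p = 0.191) and Pan3 (0.30, SE 0.13, adjusted p = 0.264) were called higher in Set A, against 18.5% of all genes. Pan2 was called higher in the interaction too (0.67, adjusted p = 0.797), and none of the 5 in Sets B to E or in the averaged effects.

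Among 12 partners and upstream factors, Prmt1, the arginine methyltransferase that Btg1 and Btg2 bind, was at 115.6 ± 3.98 TPM for p16 WT CTL and 119.0 ± 7.10 TPM for p16 WT RUN, against 118.0 ± 5.00 TPM for p16 KO CTL and 111.7 ± 4.29 TPM for p16 KO RUN (SD, n = 4). It was called lower in Set A (-0.14, SE 0.06, adjusted p = 0.251) and in the interaction (-0.17, SE 0.08, adjusted p = 0.797), where Btg2 had the opposite sign. Id3, an inhibitor of basic helix-loop-helix factors that BMP signalling induces, was called higher in Set E (0.42, SE 0.06, adjusted p = 0.394), Set D (0.38, adjusted p = 0.438) and Set A (0.25, adjusted p = 0.184). Ccnd1, which encodes cyclin D1, was called lower in Set D (-0.47, SE 0.19, adjusted p = 0.536). Of the 12, 2 were called in Set A (18.5% of all genes), 2 in Set D (8.63%), 1 in Set B (6.69%), 1 in Set E (3.87%) and none in Set C (4.81%), and the list median of Set A was -0.07.

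Btg2 is a p53 target, and of 15 other targets 1 was called in Set B (Perp, 0.54, adjusted p = 0.625), against 6.69% of all genes, and 4 in Set A, against 18.5%, where Cdkn1a, the p21 gene, was higher (0.97, SE 0.21, adjusted p = 0.131) and Ccng1, Perp and Phlda3 were lower. In Set D, where Btg2 was at -0.28 and not called, 3 of 15 were called higher, Cdkn1a (0.79), Plk2 (0.23) and Gadd45a (0.37), with adjusted p of 0.433, 0.453 and 0.551, against 8.63% of all genes. In the interaction, where Btg2 was called at 0.46, 1 of 15 was called lower, against 5.48% of all genes. The list median there was -0.13, against 0.02 over all genes. For running averaged over genotypes 1 of 15 was called higher and 1 lower, against 17.9% of all genes. Cdkn1a rose by 0.76 (SE 0.16, adjusted p = 0.0481) and Ccng1 was called lower (-0.12, adjusted p = 0.215). Of 22 immediate early genes, 4 were called in Set A, all higher, with Fosl2 first (0.60, SE 0.07, adjusted p = 0.0608), a share near the 18.5% of all genes. In Set B 1 was called, Npas4 (-1.64, SE 0.59, adjusted p = 0.625), against 6.69% of all genes. In Set D 3 were called higher, Fosl2 (0.57), Egr3 (0.30) and Ier5 (0.43), and Dusp1 lower (-0.56), with adjusted p from 0.296 to 0.543, against 8.63% of all genes. For running averaged over genotypes 3 of 22 were called higher and 1 lower, against 17.9% of all genes. Fosl2 (0.54, adjusted p = 0.0219) and Egr3 (0.29, adjusted p = 0.0390) rose, Ier5 was called higher (0.35, adjusted p = 0.0674) and Dusp1 lower (-0.43, adjusted p = 0.181). In the interaction 2 of 22 were called, both higher, against 5.48% of all genes. Npas4 was 1 of them (2.08, SE 0.72, adjusted p = 0.797), with the same signs as Btg2 in Set B and in the interaction.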

How the data were processed

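RNA of the dentate gyrus was sequenced by the authors in 16 libraries of 2 pooled mice, 4 per group, with groups and replicate numbers from the labels. Per the methods and the submitters' processing notes, reads were demultiplexed with bcl2fastq 2.20, adapters were masked with Cutadapt 1.11, adapters and low-quality bases were trimmed with ERNE, reads were aligned to mm10 with STAR, and gene abundances were computed with StringTie. The TPM values were deposited by the authors as StringTie output per gene. The deposited FPKM values belong to the same run, and the coverage values deposited are the mean coverage per base; FPKM served as an alternative and coverage for relative depth. The tables hold no read counts, so counting error per gene is unknown.

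Values of rows that share a gene name were added up. To scale the libraries, each was divided by its median ratio to the average library, taken over the 13226 genes that reach 1 TPM throughout (factors 0.920 to 1.03). Genes averaging 0.1 TPM or more (17317) entered the tests as log2(scaled TPM + 0.1), a scale that understates changes of low genes, with limma 3.58.1 in R 4.3.3 (statmod 1.5.0, jsonlite 2.0.0), empirical Bayes moderation and a variance trend. Sets A to E used the 8 libraries of their groups, the averaged effects and the interaction all 16. TPM is printed unscaled. Single members were also compared by two-sided exact permutation tests. Sets A to E had 70 splits, and the averaged effects had 4900 splits within 2 strata. Relations used 100000 two-sided permutations, within groups for deviations. Sequences and motifs were read in Python 3.11.15 (Biopython 1.88, pandas 2.3.3, NumPy 2.4.6, SciPy 1.17.1, matplotlib 3.10.9). Genes named beside the members were Cdkn2a, Prmt1, Cnot7, Cnot8, the 3 genes most like each member (1 is not reported here) and at most 3 genes of smallest p per list and comparison; the direction counts of a list may name 1 more. On simulated data, 97% of 200 genes changed by 1 on the log2 scale were called in Set B and 98% in Set D, and 90.5% in the interaction, each among 17317 genes. The largest fitted change of a member was 0.46, and detection of changes of that size was not simulated. The alternatives tried changed the low-value filter (1 TPM, or none), the pseudocount (1 or 0.01), the scaling (unscaled values or quantiles), the unit (FPKM), the libraries in the model (all 16, or each left out), the variance trend, the handling of rows sharing a name, and the likeness measure (Spearman's rho), or added nuclear RNA as a covariate. The members, lists and tests were chosen with earlier results of these data known. P-values measure the spread between pools. The authors' own comparisons were not used.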

Additional observations from a re-analysis of the deposited data

Results flagged for a closer look

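The row named Btg3 on chromosome 16 stood far from the other libraries of its group in p16 WT RUN replicate 10, at 3.45 TPM, and in p16 KO RUN replicate 16, at 0.800 TPM; 40 groups of 4 libraries were looked at in this way, and chance marks about 1 in 20.

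The running effect on Btg2 differed between genotypes by 0.46 on the log2 scale (n = 16, limma interaction p = 0.0488, adjusted p = 0.797), a call lost when any 1 of 10 of the 16 libraries was left out, with values of 0.36 to 0.58.

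The row named Gm7334, which no count by the name Btg3 includes, held a mean of 24.1 TPM (SD 3.81, n = 16) at the chromosome 16 place of Btg3.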

How the results depend on the processing

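No paired analysis was possible because the replicate numbers run from 1 to 16 and groups share none. Tob1 in Set D kept its direction and its call under every alternative run, with a limma p of up to 0.0415. Of 980 refitted log2 fold changes 866 kept direction and side of the threshold, 18 lost and 29 gained a call, and 67 changed sign, each of a value that was not called. Only refits of the 3 called values, of 40, could lose a call. All 18 losses were of Btg2, in Set B or in the interaction. The choices of Btg3 rows and the omission of the 3 libraries low in nuclear RNA were made after seeing the data. Where a value moved, the cause was not tested.

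With 1 library left out, the number of members called was 0 to 1 in Set A, for genotype averaged over activity and for the interaction, 0 to 2 in Sets B and C and for running averaged over genotypes, and 1 to 3 in Set D. With the nuclear RNA mean as a covariate the interaction had 0 (Btg2 at 0.46, as in the reported fit), Set C 1 and Set D 3. Without the 3 libraries low in nuclear RNA Set C had 1, Set D 2, running 1 and genotype 2 (Btg2 and Btg3). The interaction count was also 0 with no filter, with quantile normalization and with no variance trend. Over all genes, the number called with 1 library left out was 2023 to 4738 in Set A, 557 to 3029 in Set B, 531 to 1018 in Set C, 1130 to 1934 in Set D, 486 to 1048 in Set E, 2276 to 4166 for running, 720 to 2724 for genotype and 619 to 2381 for the interaction.

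Log2 fold changes that changed sign with a library left out ranged from -0.064 to 0.16 for Btg3, -0.28 to 0.00759 for Tob1, -0.21 to 0.044 for Tob2 in Set A, from -0.16 to 0.15 for Btg1, -0.22 to 0.032 for Tob2 in Set B, from -0.13 to 0.15 for Btg3, -0.29 to 0.027 for Tob2 in Set C, from -0.24 to 0.042 for Btg3 in Set D, from -0.11 to 0.22 for Btg1, -0.079 to 0.086 for Btg2, -0.23 to 0.039 for Tob1, -0.20 to 0.11 for Tob2 in Set E, from -0.032 to 0.11 for Btg3 in running averaged over genotypes, from -0.074 to 0.11 for Btg1, -0.14 to 0.019 for Tob2 in genotype averaged over activity, from -0.086 to 0.25 for Btg1, -0.088 to 0.20 for Btg3, -0.14 to 0.20 for Tob2 in the interaction.

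Btg3 turned negative at its chromosome 16 place in Set A (-0.021), Set C (-0.022) and running (-0.022), and with all rows of both names (-0.00245, -0.051 and -0.027). With the highest row per name it was -0.11 in Set C and -0.040 for running, and in Set C it was -0.00122 with quantile normalization and -0.089 with the nuclear covariate. Without the 3 libraries low in nuclear RNA, Btg3 was -0.13 in Set C, Tob2 0.18 in Set B, 0.078 for genotype and -0.20 in the interaction, and Btg1 -0.12 for genotype. Tob2 in Set B was 0.0152 with the nuclear covariate, and Btg1 for genotype -0.030 with it and -0.0188 on TPM as deposited. Among relations, r changed sign within groups for Btg3 with Tob1 (-0.046) and for Btg2 with the nuclear RNA mean (-0.00568), and without the 2 farthest libraries for Tob1 (-0.28) and Tob2 (-0.49) with that mean.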
